A study of Mus musculus with 8 samples.

Results

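The 4 WT libraries of this ATAC-seq series, 2 from luminal and 2 from basal-like PyMT tumor cells, were compared to find the genes and distal regions whose accessibility separated the populations. These 4 are part of 8 libraries, and the other 4 came from Lats1-CKO cells, which lack the LATS1 kinase of the Hippo pathway. PyMT cells are derived from mouse mammary tumors driven by the polyoma middle T oncogene, and the labels describe each sample as a tumor-derived cell line of strain FBV/N, the labels' spelling. Luminal cells were sorted as EpCAM-high and CD49f-high (BM1 and BM5), basal-like cells as EpCAM-low and CD49f-high (BM2 and BM6). The paper states that sorted cells were grown briefly in culture before ATAC-seq, so these are not freshly sorted cells. It also reports that sorted WT basal-like cells in part became luminal over later passages. The matching Lats1-CKO libraries are BM3 and BM7 (luminal) and BM4 and BM8 (basal-like). No animal age or treatment is attached to the groups, all cells were cultured in serum-containing medium, and the labels do not say whether replicates came from separate tumors or cultures. All values therefore describe the spread between these libraries, which may be technical.

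The mammary epithelium has an inner luminal layer, which holds hormone-sensing and milk-producing cells, and an outer basal layer of contractile myoepithelial cells. Luminal cells carry tight junctions and simple-epithelial keratins, and basal-like tumor cells often lose parts of that program. ATAC-seq marks DNA that a transposase can reach, and such open DNA includes active promoters and enhancers.

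The WT lists held 72685 peaks in BM1 and 58783 in BM5 (luminal), and 70446 in BM2 and 51497 in BM6 (basal-like). Merging them gave 113075 regions. A region was called luminal when both luminal and neither of the basal-like libraries had a peak, which held for 2168 regions (1.92% of all), and basal-like in the reverse case, which held for 1931 (1.71%). Another 27117 regions had a peak in all 4 libraries and are called shared. Peak strength is given as a score percentile, the rank of a peak's deposited score within its own library, from 0 to 100 at the strongest. The lists hold no reads, so depth is unknown and no counting interval can be given. With 2 libraries against 2, the smallest two-sided p of an exact permutation test is 0.333, so presence and absence of peaks is described without a test.

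Both populations' labels were checked at the genes of the sorting markers. The promoter of Epcam, the gene of the EpCAM antigen, had percentiles of 88.0 and 66.0 in the luminal libraries BM1 and BM5, and of 66.1 and 22.5 in the basal-like libraries BM2 and BM6. The groups overlapped there, since BM5 and BM2 were nearly equal, and neither BM4 nor BM8 had the peak. Itga6, which encodes CD49f, had 96.1 and 48.2 against 88.4 and 77.3, and the groups overlapped. Of 20 basal and myoepithelial genes, 7 had no promoter peak in any WT library, Krt5, Krt17, Trp63 and Acta2 among them. Another 8, Krt14 and Mylk among them, had one in all 4 WT libraries. The basal-like cells are therefore called by their sort and not by a myoepithelial promoter pattern.

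In percentage points over the central 200 bp, the motif whose share differed most between the 2 kinds of region was the RUNX motif, TGTGGT searched on both strands. Over the central 400 bp the nuclear receptor half-site differed more (6.21 points higher in luminal regions, against -5.12 for RUNX). In a search of single regions, those in UTRs or exons or wider than 300 bp were left out, the strongest Stat6 region among them. Of all 30 regions at the 8 basal-like loci described below, 6 held the RUNX motif in this search. Of these, 1 from each of the 4 genes concerned is shown, as examples of the letters and not as an enrichment. Sequences are the plus strand of GRCm38.p6, 5′ to 3′, and capitals mark the motif on either strand.
Prickle2, chr6:92432256-92432359 (intron of Prickle2): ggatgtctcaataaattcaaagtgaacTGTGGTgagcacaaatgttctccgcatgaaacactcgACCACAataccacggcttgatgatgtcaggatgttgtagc
Glis3, chr19:28366008-28366172 (intron of Glis3): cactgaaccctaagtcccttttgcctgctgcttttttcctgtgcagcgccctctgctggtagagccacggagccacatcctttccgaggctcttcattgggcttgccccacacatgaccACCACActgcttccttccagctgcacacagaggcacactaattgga
Zcchc24, chr14:25776365-25776481 (intergenic): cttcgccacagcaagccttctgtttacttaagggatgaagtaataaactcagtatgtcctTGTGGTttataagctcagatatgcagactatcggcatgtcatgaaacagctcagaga
2010111I01Rik, chr13:63303496-63303659 (intron of 2010111I01Rik/Fancc): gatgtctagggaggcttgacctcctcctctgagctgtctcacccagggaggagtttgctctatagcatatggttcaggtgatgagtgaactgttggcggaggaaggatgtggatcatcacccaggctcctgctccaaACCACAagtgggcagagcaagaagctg

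Luminal regions held the nuclear receptor half-site AGGTCA more often. The same search found 5 such regions at the luminal loci, and 3 of them are shown. This motif was chosen after its values were seen, and capitals mark it on either strand. The Cdcp1 intron held 4 matches, and each of the others held 1.
Ccdc6, chr10:70060779-70061004 (intergenic): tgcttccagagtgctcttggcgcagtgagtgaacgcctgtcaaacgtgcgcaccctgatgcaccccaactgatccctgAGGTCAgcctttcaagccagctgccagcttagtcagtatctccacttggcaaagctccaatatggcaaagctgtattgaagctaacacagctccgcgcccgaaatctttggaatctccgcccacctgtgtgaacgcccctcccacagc
Zmiz1, chr14:25676496-25676616 (intergenic): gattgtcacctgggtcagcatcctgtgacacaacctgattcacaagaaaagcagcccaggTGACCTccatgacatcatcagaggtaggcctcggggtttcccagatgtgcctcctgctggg
Cdcp1, chr9:123207035-123207235 (intron of Cdcp1): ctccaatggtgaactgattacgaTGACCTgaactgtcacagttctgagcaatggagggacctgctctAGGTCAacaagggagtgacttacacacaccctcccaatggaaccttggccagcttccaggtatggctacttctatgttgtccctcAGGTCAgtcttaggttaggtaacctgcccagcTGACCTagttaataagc

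The libraries did not group by population in the peaks that only a pair of them shared. BM1 and BM2, 1 luminal and 1 basal-like library, alone shared 9111 regions, more than the 2168 of the luminal pair and the 1931 of the basal-like pair. The 3 other mixed pairs alone shared 3020 (BM1 and BM6), 2741 (BM5 and BM2) and 864 regions (BM5 and BM6). A further 15324 regions were found in BM5 alone. BM5 stood apart from the other libraries: 16.4% of its peaks were at the lowest score of 13, against at most 0.345% elsewhere, and 30.0% of the regions found in BM5 alone lay mostly in repeats, against 8.05 to 13.8% for the other WT libraries. Without BM5, with BM1 alone standing for luminal cells, there were 15945 luminal and 2858 basal-like regions, and 583 luminal and 102 basal-like promoter genes as defined below. A region open in fewer cells and a region less open in every cell cannot be told apart in these bulk libraries.

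**Figure D1:**
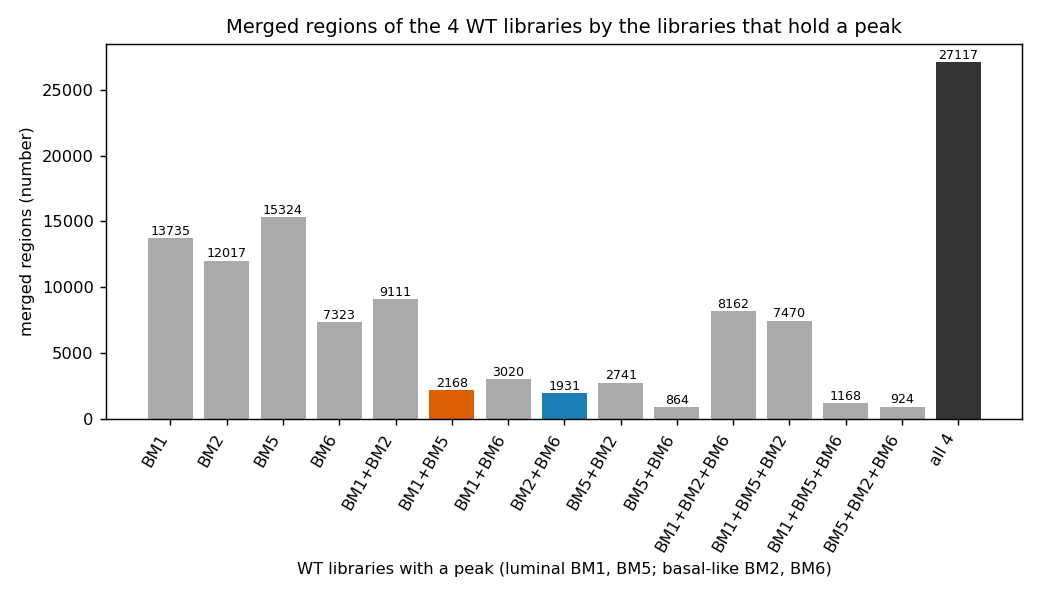
Number of merged regions (y axis) for every combination of the 4 WT libraries that held a peak (x axis). Orange is the luminal pair with 2168 regions, blue the basal-like pair with 1931, black the 27117 regions found in all 4, and grey all other combinations, of which BM1 with BM2 holds 9111.

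Luminal and basal-like regions resembled the average merged region in width and position. Their median widths were 135 and 146 bp, against 144 bp for all merged and 282 bp for shared regions. Within 1 kb of a TSS lay 17.3% and 20.8%, against 23.7% of all merged and 41.8% of shared regions. They were weak in general: the median of the smaller percentile of the defining libraries was 20.4 for luminal and 17.1 for basal-like regions, and 126 and 95 regions reached 50 in both libraries.

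At promoters, taken as 1 kb either side of a TSS, epithelial genes showed the clearest order. The list of 26 keratin, junction and epithelial regulator genes had a promoter peak at 26 genes in BM1 and at 23 in BM5, the luminal libraries, and at 23 in BM2 and 15 in BM6, the basal-like ones. In 14 of the 26 genes (53.8%) both luminal percentiles lay above both basal-like ones, and in 0 genes was the order the reverse. Over all 13495 protein-coding genes with a WT promoter peak, the shares were 17.6% and 7.63%. A missing peak counted as lower than any peak.

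Krt8, a keratin of luminal cells, had percentiles of 75.7 and 96.3 in the luminal libraries, and of 65.5 and 31.4 in the basal-like ones. The groups did not overlap. Krt18, also a keratin of luminal cells, had 56.6 and 52.2 against 57.6 and 51.1, and there the groups overlapped. They overlapped at the keratin genes Krt7 and Krt19 as well. Cldn4, a tight junction claudin, had 88.5 and 91.7 in the luminal libraries, 65.7 in BM2 and no peak in BM6. St14, the serine protease matriptase, showed the same pattern of absence, with 92.5 and 82.2 in the luminal libraries, 63.3 in BM2 and none in BM6. Prss8, the protease prostasin, was the only list member with a peak in both luminal (30.8 and 83.6) and in neither of the basal-like libraries.

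Several transcription and splicing regulators of the list, but not all, followed the same order. Esrp2, an epithelial splicing regulator, had percentiles of 86.6 and 93.8 in luminal cells, and of 65.5 and 38.7 in basal-like cells. Its relative Esrp1 had 90.2 and 94.5 against 85.3 and 58.3, a narrower gap. Ovol1, a repressor that holds the epithelial state, had 84.8 and 69.8, then 33.2 in BM2 and no peak in BM6. The other genes in this order were Cdh1, Cldn7, Ocln, Tjp3, Dsp, Spint1 and Grhl2. Grhl1, also an epithelial factor, did not follow it, with 92.9, 96.9, 96.4 and 95.2 in BM1, BM5, BM2 and BM6. Neither did Ovol2, with 72.9 and 36.1 in the luminal libraries against 61.1 and 45.1 in the basal-like ones.

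The order held in 3 alternative settings, the first of which made the peak lists equal in length. With each list cut to its 50000 highest-scoring peaks it was found in 14 of 25 genes (56%, against 15.6% of all genes), with scores of at least 30 in 11 of 25 (44%, against 9.42%), and with percentiles among promoter peaks in 13 of 26 (50%, against 14%). In the 3 settings 0 genes were in the reverse order. With 1 WT library left out, the order became more frequent among all genes too. The luminal order was found in 60% of the list and 28.4% of all genes without BM1, in 76.9% and 56.4% without BM5, in 69.2% and 32.4% without BM2, and in 53.8% and 30.4% without BM6. The reverse order then held for 1 to 4 genes of the list. It was found in 16% of the list and 38.5% of all genes without BM1, and in 3.85% and 12.3% without BM5. Without BM2 the shares were 3.85% and 22.3%, and without BM6 15.4% and 21%.

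**Figure D2:**
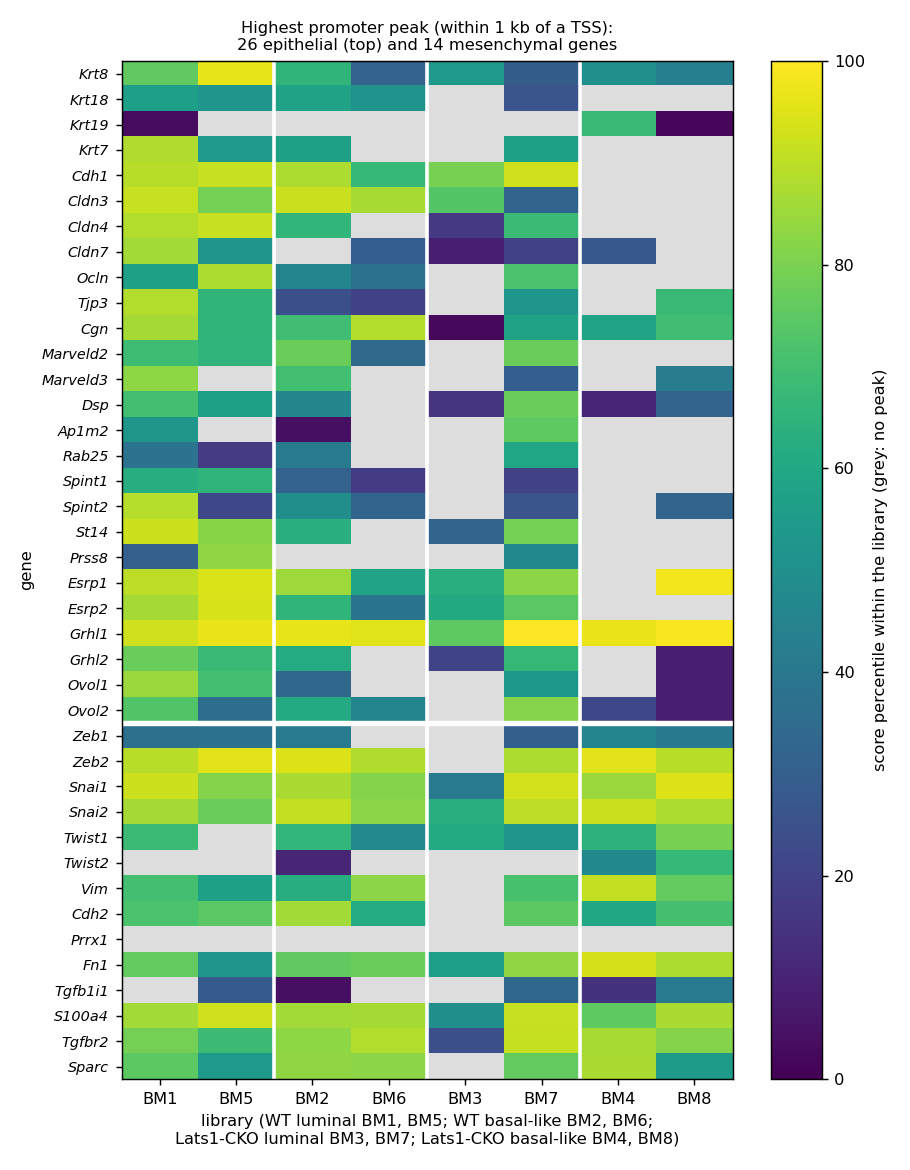
Score percentile of the highest peak within 1 kb of a TSS, by color from 0 to 100, for 26 epithelial genes above the white line and 14 mesenchymal genes below it, in 8 columns of libraries; grey is no peak. Among epithelial genes BM1 has 26 peaks, BM6 has 15 and BM4 has 7, while 9 of the mesenchymal genes have a peak in all 4 WT libraries.

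The Lats1-CKO libraries differed in the same direction at this list. Of the 26 genes, 25 had a promoter peak in the luminal library BM7, against 7 and 12 in the basal-like libraries BM4 and BM8. Over all protein-coding genes the shares were 59.3% in BM7, 57.2% in BM4 and 58.3% in BM8. BM7 lay above both in 18 genes (69.2%), against 36.4% of all genes with a WT promoter peak. BM7 lay below both in 3 genes (11.5%, against 22.1%): Krt8, at 29.5 in BM7 and 50.4 and 43.0 in BM4 and BM8, Cgn, at 57.6 against 58.5 and 69.2, and Krt19, with no peak in BM7 and 67.5 and 1.83. The other luminal library, BM3, held 14753 peaks, far below the 86279 to 99022 of the other 3 Lats1-CKO libraries. It had a peak at 12 of the 26 genes and at 34.6% of all protein-coding genes.

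Other lists differed less. Of 14 mesenchymal and EMT factor genes, 9 had a promoter peak in all 4 WT libraries, Zeb2, Snai1, Snai2 and Vim among them. Over all protein-coding genes this held for 45.85%. Both basal-like percentiles were above both luminal ones in 2, Tgfbr2, a TGF-beta receptor (79.3 and 68.7 against 83.0 and 88.5), and Sparc, a matrix glycoprotein (74.7 and 54.0 against 83.3 and 82.6). In 0 was the order luminal. Of the 13 with a WT promoter peak these were 15.4% and 0%, against 7.63% and 17.6% of all genes. The basal-like order was found in 4 of 12 with the 50000 highest-scoring peaks (10.5% of all genes), in 3 of 12 with scores of at least 30 (9.57%) and in 5 of 13 with percentiles among promoter peaks (12.9%).

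Of 20 basal and myoepithelial genes, 12, 10, 11 and 9 had a promoter peak in BM1, BM5, BM2 and BM6. The order was luminal in 3 (Krt14, Lamb3 and Sfn), which are genes of a basal keratin, a laminin chain and a stress-response protein, and basal-like in 0. These counts were 23.1% and 0% of the 13 with a WT promoter peak, against 17.6% and 7.63% of all genes. With scores of at least 30 the counts became 1 and 2 (7.69% and 15.4%, against 9.42% and 9.57%). Of 12 hormone-sensing genes, 6, 4, 6 and 2 had a peak. Esr1, the estrogen receptor, had 15.4 and 82.7 in luminal cells, 29.3 in BM2 and none in BM6, and Pgr, the progesterone receptor, had none in any WT library. Of 15 progenitor and alveolar genes, 10, 6, 10 and 8 had a peak, and the order was luminal for Elf3 and basal-like for Itgb3. Each was 9.09% of the 11 with a WT promoter peak.

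Among 12 YAP and TAZ target genes, 11 had a promoter peak in all 4 WT libraries, as did 45.85% of all protein-coding genes. The twelfth, Axl, was basal-like. Axl encodes a receptor tyrosine kinase, and its percentiles in the basal-like pair were 29.3 (BM2) and 79.2 (BM6), with no luminal peak. In Lats1-CKO cells it was open in both populations, at 69.0 in BM7, 77.5 in BM4 and 72.3 in BM8. Ccn2, the connective tissue growth factor, was also in the basal-like order (40.4 and 52.2 against 65.7 and 65.4), whereas Ccn1, Ankrd1, Tead1 and F3 were in the luminal order. With percentiles among promoter peaks, these counts moved from 2 basal-like (16.7%) and 4 luminal (33.3%) to 4 (33.3%) and 1 (8.33%). The shares of all genes were 7.63% basal-like and 17.6% luminal, then 12.9% and 14%.

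Markers of other cells were examined because a gate can hold them. Of 12 fibroblast genes, 2, 3, 4 and 3 had a promoter peak in BM1, BM5, BM2 and BM6. Pdgfrb, the beta receptor for platelet-derived growth factor, had 22.3 and 62.0 in the basal-like libraries and no luminal peak, and Pdgfra had 78.7 and 62.4 against 78.7 and 78.9. Col3a1, Lum, Thy1 and Postn, genes of matrix and stromal surface proteins, had no peak in any WT library. Of 12 immune genes, 2, 2, 2 and 1 had a peak, and Ptprc, Cd3e and Itgam had none in any WT library. The myeloid genes with a peak were Csf1r, at 91.9, 78.3 and 81.7 in BM1, BM5 and BM2 and none in BM6, and Cd68, at 71.3, 57.5, 55.2 and 30.7 in BM1, BM5, BM2 and BM6. The part of such cells in the results was not tested. Of 10 endothelial genes 3, 1, 2 and 2 had a peak, and of 12 genes of other tissues 2, 3, 2 and 2.

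Over all 21755 protein-coding genes, 116 (0.533%) had a promoter peak in both luminal and neither of the basal-like libraries, and 64 (0.294%) had the reverse. For comparison, 744 genes had a peak in 1 luminal and 1 basal-like library only, 9974 in all 4 and 8260 in none. Most luminal or basal-like regions near a TSS added to a promoter that was open anyway: of 341 genes with a luminal region within 1 kb, 205 had a promoter peak in all 4 libraries, as did 257 of 353 genes with a basal-like region.

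Among luminal promoters, Wdr72, a WD-repeat protein known from enamel formation, ranked first, with percentiles of 73.0 in BM1 and 71.3 in BM5. Plekhg6, a guanine nucleotide exchange factor, had 71.1 and 51.0. Neither gene had a promoter peak in any Lats1-CKO library. Stx19, a SNARE protein, had 63.8 and 44.9, and of the Lats1-CKO libraries BM7 alone had the peak, at 70.9. Syt17, a synaptotagmin, had 68.5 and 57.5, and was open in BM7, BM4 and BM8. The region before Cpne1, a calcium-dependent membrane-binding protein, also lies at the starts of Rbm12 and Gm28036, so its 63.8 and 44.9 count for all 3 genes. AI464131, Mex3d, Tmem74, Boll and Pgr15l complete the 12, with smaller percentiles between 48.2 and 59.8.

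Among basal-like promoters, Nid2, the basement membrane protein nidogen-2, had percentiles of 65.5 in BM2 and 74.1 in BM6. Ebf1, a transcription factor of B cells and adipocytes, had 59.3 and 78.0. Il2rb, a subunit of the interleukin-2 receptor, had 66.4 and 63.4, and Cd300lb, a receptor of myeloid cells, had 77.4 and 55.4. Both were open in BM7, BM4 and BM8, at up to 99.3 for Il2rb in BM4 and 99.9 for Cd300lb in BM8. Vsir, an immune checkpoint ligand, had 48.0 and 59.5, and Il12b, a subunit of interleukin-12, had 59.3 and 38.7. Aqp7, Pde1b, Car10 and Rcan2 had smaller percentiles between 36.6 and 50.4.

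Ubd, a ubiquitin-like protein, and Prr7 ranked first by the smaller of the 2 basal-like percentiles, with 78.3 and 85.5 for Ubd and 69.0 and 78.4 for Prr7. At both genes, however, the basal-like peak reached into the 1 kb window while the luminal libraries had a peak just beyond it, in the same merged region. These 2 genes are therefore marked by the edge of the window and not by an absent peak. Further promoter genes were called without a region of their own class. A luminal region within 1 kb and no basal-like promoter peak were found at 86 genes, fewer than the 116 luminal promoter genes. In the reverse direction there were 50 such genes, fewer than the 64 called basal-like. Among the named promoters, the region at Mex3d was not a luminal region. When promoters were widened to 5 kb, 13 of 27 named promoters lost at least part of their pattern, Ubd, Prr7, Plekhg6, AI464131, Axl and Prss8 among them.

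**Figure D3:**
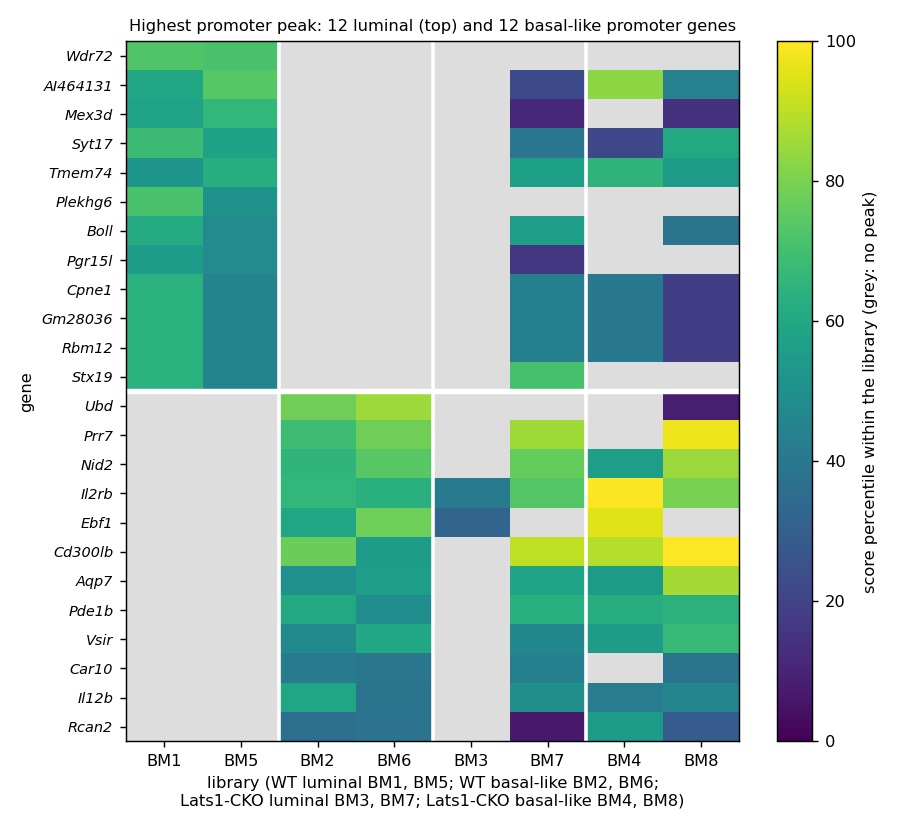
Score percentile of the highest peak within 1 kb of a TSS, by color from 0 to 100, for the 12 luminal (above the white line) and 12 basal-like promoter genes with the highest smaller percentile; columns are the 8 libraries and grey is no peak. The first 4 columns show the choice itself, and in the last 4 Wdr72 and Plekhg6 stay without a peak while Il2rb reaches 99.3 in BM4.

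The Lats1-CKO libraries were not used to choose these genes. BM7, BM4 and BM8 had a promoter peak at 65.5%, 46.6% and 50.9% of the 116 luminal genes, and at 79.7%, 78.1% and 81.3% of the 64 basal-like genes. For the 744 mixed genes, the values were 73.1%, 62.8% and 68.8%. So the share with a peak in the basal-like libraries was lower for luminal than for basal-like promoters, by 31.0 percentage points on average, and BM7 differed in the same direction by a smaller step. That difference reversed to -6.80 points without BM2 and to -5.02 points without BM6, was 60.5 points without BM1 and 34.4 without BM5. Among the luminal promoters, 18 genes had a peak in BM7 and in neither of BM4 and BM8, and 3 had the reverse. Among the basal-like ones, 1 and 4 did. Peaks in all 3 were found at 36 luminal and 37 basal-like promoters.

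Around genes, 385 protein-coding genes had 2 or more luminal regions within 50 kb of a TSS and 386 had 2 or more basal-like regions (1.77% each). Neighboring genes share regions, and the genes formed 202 luminal and 193 basal-like loci, of which 21 and 26 had 3 or more regions. Some genes had both kinds: 687 (3.16%) had at least 1 of each, and 19 (0.0873%) had 2 or more of both. At least 1 luminal region was found at 15.7% of all genes, and at least 1 basal-like region at 14.3%.

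Stat6, the transcription factor of interleukin-4 signaling, and its neighbor Lrp1 had the most basal-like regions, 5 each, at a locus that also holds Nab2, Nemp1 and Myo1a. The strongest lay 10966 bp upstream, at chr10:127631857-127632185, with percentiles of 72.6 in BM2 and 71.0 in BM6, and it had a peak in BM7, BM4 and BM8. The Stat6 promoter itself was open in all 4 WT libraries (82.0, 79.8, 73.3 and 88.5 in BM1, BM5, BM2 and BM6). Lif, a cytokine of the interleukin-6 family, had 4 basal-like regions, yet its promoter was luminal, with 20.6 and 53.2 in BM1 and BM5 and no basal-like peak. The clearest of its regions was 32863 bp downstream, at chr11:4299838-4300079, with 42.8 and 73.6.

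Prickle2, a planar cell polarity gene, had 4 basal-like regions, all in its introns, with smaller percentiles of at most 22.5. All 4 had a peak in BM4 and 3 had one in BM8, while BM7 had a peak in 1. Zcchc24 also had 4, of which 3 were intronic and the other intergenic, but it had 2 luminal regions within 50 kb as well and lies at the luminal Zmiz1 locus. Lif, Prickle2 and 2010111I01Rik each had 1 luminal region. Glis3, a zinc finger factor of the GLI-like family, had 3, and 1 of them, at chr19:28283694-28284144, spans the start of a Glis3 transcript with 55.5 and 88.5. Hivep3, Cfap161 and 2010111I01Rik complete the 8 loci, with 3, 3 and 4 regions.

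Among luminal loci, Ccdc6, Ercc6, Cdcp1, Osbpl9 and Srpk2 had 4 regions each, and Zmiz1, Nupr1 and Trappc6a had 3; Cdcp1 and Osbpl9 also had 1 basal-like region each. At Ccdc6, 3 regions lay 29768 to 36962 bp upstream and had no peak in any Lats1-CKO library. The strongest of these, printed above, had 61.8 in BM1 and 55.5 in BM5. At Ercc6, a DNA repair gene, the strongest was at chr14:32492649-32492932 with 75.5 and 70.3, and BM7, BM4 and BM8 also had a peak. At Zmiz1, a transcriptional coregulator, an intronic region at chr14:25594171-25594399 had 62.7 and 80.7 and a peak in BM7 alone of the Lats1-CKO libraries. Regions at the lowest score of BM5 (percentile 8.20) were among those at Ccdc6, Ercc6, Osbpl9 and Srpk2.

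**Figure D4:**
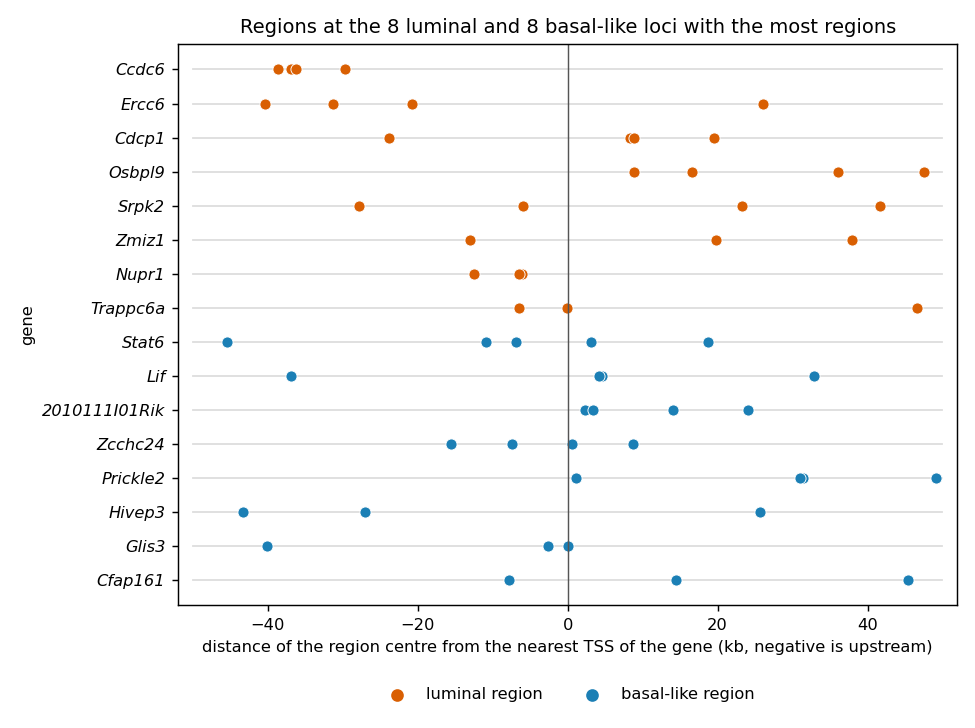
Distance of each region's center from the nearest TSS of the gene in kb (x axis; negative is upstream) for the 8 luminal (orange) and 8 basal-like (blue) loci with the most regions, 1 point a region. Stat6 has 5 basal-like regions, and all 4 luminal regions of Ccdc6 lie upstream of the nearest TSS.

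List genes were near such regions at different rates, but this measure changed with the peak lists used. Of the 26 epithelial genes, 12 (46.2%) had a luminal and 6 (23.1%) a basal-like region within 50 kb, against 15.7% and 14.3% of all genes. With the 50000 highest-scoring peaks, the counts were 8 (30.8%) and 9 (34.6%), against 13.4% and 14% of all genes. With scores of at least 30 they were 8 and 5 (30.8% and 19.2%, against 9.77% and 14.2%). Requiring no peak within 500 bp gave 9 and 6 (34.6% and 23.1%, against 13.1% and 11.2%). Within 25 kb they were 8 and 3 (30.8% and 11.5%, against 9.52% and 8.86%). Within 100 kb they were 16 and 9 (61.5% and 34.6%, against 25.8% and 23.7%). Of the 20 basal and myoepithelial genes, 6 (30%) had a luminal and 10 (50%) a basal-like region. With the 50000 highest-scoring peaks 5 (25%) and 3 (15%) did. In the other settings just named, in that order, the counts were 2 and 8, 4 and 8, 3 and 8, and 8 and 13. Those were 10% and 40%, 20% and 40%, 15% and 40%, and 40% and 65%, against the same shares of all genes. Of the 12 YAP and TAZ targets, 2 (16.7%) had a luminal and 6 (50%) a basal-like region. With the 50000 highest-scoring peaks 3 (25%) and 8 (66.7%) did. Of the 12 fibroblast genes, 0 had a luminal and 4 (33.3%) a basal-like region. With the 50000 highest-scoring peaks 0 and 2 did, the latter 16.7% against 14% of all genes. Among single genes, Esr1, Elf3, Ocln, Spint2 and Tead1 had 2 luminal regions each, Vwf had 3 basal-like regions, and Cdh1, Oxtr, Vim and Lalba had 2.

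In the 27117 shared regions, strength was compared. The lower percentile of one population exceeded the higher one of the other by at least 20 points in 496 regions in favor of luminal cells (1.83%) and in 221 in favor of basal-like cells (0.815%). This split depended on scale, since with percentiles among the shared regions only, the numbers were 459 and 528. Without a minimum gap the groups did not overlap in 4847 (17.9%) and 2988 (11%) regions. By limma with Benjamini-Hochberg adjustment over all shared regions, 0 regions passed 0.05 (smallest adjusted p = 0.9998), and 363 luminal-higher and 316 basal-like-higher regions had an unadjusted p under 0.05. Of the luminal-higher regions, 37.5% were within 1 kb of a protein-coding TSS and of the basal-like-higher ones 15.4%, against 38.4% of all shared regions.

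The widest luminal gap was in an intron of Car12, the gene of carbonic anhydrase 12, at chr9:66739600-66739791. Its percentiles were 87.2 and 94.4 in the luminal libraries, and 18.9 and 22.5 in the basal-like ones. The limma estimate, made on percentiles among the shared regions only, was 72.1 points higher in luminal cells (SE 22.9, adjusted p = 0.9998). The Lats1-CKO luminal libraries also had the peak, at 62.9 in BM3 and 80.0 in BM7, and neither BM4 nor BM8 had it. An intronic region of Scnn1b, a subunit of the epithelial sodium channel, whose nearest TSS is that of Cog7, had 73.9 and 66.0 against 1.69 and 0.294, and BM7 (78.3) was the only Lats1-CKO library with a peak. A coding exon of Pik3c2b (nearest TSS Ppp1r15b) had 79.4 and 92.5 against 25.9 and 13.2, and again BM7 alone held it, at 82.7.

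Promoter regions were among the luminal-higher ones. The start of Rnf44 had 80.0 and 65.1 against 2.89 and 7.61, and the start of Map1lc3a, the autophagy protein LC3A, 70.1 and 68.7 against 15.1 and 15.7. In Lats1-CKO cells these 2 were open in BM7, BM4 and BM8. The regions nearest to Car8, Ets1, Vwa8, Usp38 and Abhd11 complete the 10, with gaps between 52.2 and 61.6 points.

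The widest basal-like gap was in an intron of Sipa1l2, at chr8:125431478-125431617, with 73.7 and 81.5 in the basal-like and 3.30 and 8.20 in the luminal libraries. An intron of Dab2, an endocytic adaptor, had 86.6 and 83.2 against 32.3 and 28.5, and it was open in BM4 (97.0), BM8 (84.9) and BM7 (68.2). An intron of Gprin3 had 77.2 and 78.9 against 22.2 and 18.1, and BM7, BM4 and BM8 were alike, at 79.0, 76.7 and 75.4. The others were nearest to Usp25, Galnt5, Btbd9, Osbpl8, Cda, Zfp704 and Gm11146, with gaps from 46.1 to 56.0 points. In 7 of the 10 regions, Sipa1l2 among them, the BM5 value was the lowest score of that library.

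**Figure D5:**
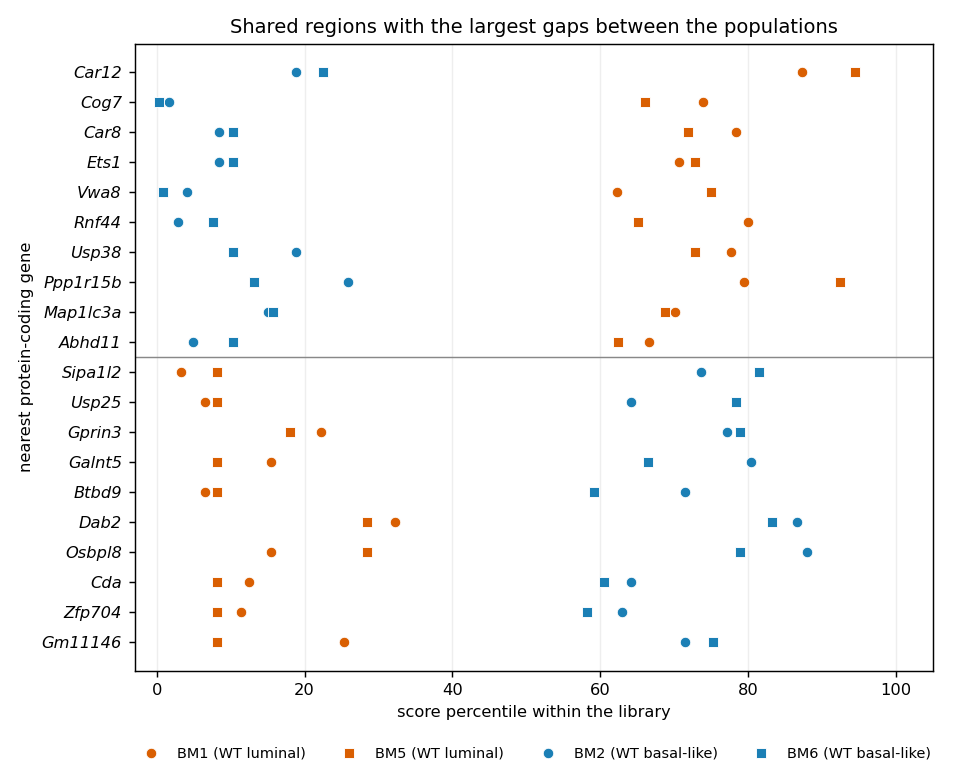
Score percentile (x axis, 0 to 100) of the 10 shared regions with the widest gap in each direction, named by the nearest protein-coding gene; orange is luminal (circle BM1, square BM5) and blue basal-like (circle BM2, square BM6). Car12 at the top has 87.2 and 94.4 against 18.9 and 22.5, and Sipa1l2 below the line has 3.30 and 8.20 against 73.7 and 81.5.

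Across the regions with a wide gap, the Lats1-CKO libraries were ordered only in part. Where BM7, BM4 and BM8 all had a peak, BM7 exceeded both in 30.7% of the luminal-higher, 23.8% of the basal-like-higher and 34.7% of all shared regions, and fell below both in 24.7%, 44.8% and 28.2%.

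Of 16 motifs searched in the central 200 bp, RUNX was found in 25.6% of basal-like and 19.5% of luminal regions, against 20.7% of all merged regions. Regions found in a single library, which do not enter either class, gave 24.4% and 22.6% in BM2 and BM6, and 19.5% and 18.1% in BM1 and BM5, so the populations did not overlap. That was so for 3 of 16 motifs in the basal-like direction (18.8%: RUNX, FOX and SOX) and for 0 in the luminal direction. Such an order of 2 against 2 libraries cannot pass an exact permutation test, whose smallest two-sided p is 0.333. For SOX it rested on 37.7% in BM1 against 37.9% in BM6. Of the regions found in BM5 alone, 30.0% lay mostly in repeats, and the part of these in the shares was not tested. FOX (TGTTTAC) was in 3.83% of basal-like and 2.49% of luminal regions, and SOX (ACAANG) in 37.1% and 36.9%, which became 38.7% and 35.5% with the 50000 highest-scoring peaks. The nuclear receptor half-site was in 16.2% of luminal and 11.7% of basal-like regions, but the single-library regions overlapped, at 14.8% and 12.6% in BM1 and BM5 and 12.6% and 12.7% in BM2 and BM6. GRHL (AACNNGTT) was in 4.24% of luminal and 2.49% of basal-like regions. AP-1 (TGANTCA), at 29.4% and 26.3%, ranged from 11.9% in BM6 alone to 40.9% in BM2 alone, a wider spread within a population than between the classes. A motif match is a run of letters and does not show that a factor was bound.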

How the data were processed

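The authors sequenced 8 ATAC-seq libraries. After adapter trimming (cutadapt), unique alignments to mm10 (bowtie 1.0.0) were kept, without mitochondrial reads, duplicates (Picard 2.3.0) or long fragments, and MACS2 called peaks in each library; the submitters' processing notes give version 2.1.1.20160309, and the paper's methods name another. The deposited value of a peak is a score, taken to be that of MACS2. Scores are on no common scale, so each was turned into a percentile within its library. The paper dropped an unnamed Lats1-CKO luminal library over quality; all lists were kept here. Depth is unknown, and DiffBind could not be repeated without reads.

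WT peaks were merged (overlap of 1 bp), and TSSs of every transcript came from GENCODE M21. Shared regions were tested with limma 3.58.1 (R 4.3.3) on percentiles among shared regions, with a trend; other results have no test. Python 3.11.15, numpy 2.4.6, pandas 2.3.3 and pysam 0.24.0 were used. Scripts were tested on simulated data: at the measured spread, limma recovered 1 of 200 planted changes of 40 points. The comparison, the 11 gene lists and the rules were chosen with earlier results of these data known. Named were the list genes, 12 promoters and 8 loci per population and 10 shared regions per direction; olfactory and vomeronasal receptor genes were counted but not named. The 2 synonyms Cyr61 and Ctgf were read as Ccn1 and Ccn2. Motif sequence is from GRCm38.p6. Alternatives in peak lists, windows, gaps, scaling and libraries were tried.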

Additional observations from a re-analysis of the deposited data

Results flagged for a closer look

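The promoter of AI464131 differed between genotypes. In WT cells both luminal libraries had a peak (59.8 in BM1, 73.9 in BM5) and neither of the basal-like libraries did. In Lats1-CKO cells both basal-like libraries (82.8 in BM4, 43.6 in BM8) lay above BM7 (22.3), and BM3, with few peaks, had none. The difference was not tested.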

How the results depend on the processing

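Counts moved with thresholds. With a score of at least 30, luminal regions were 1125, luminal promoter genes 69 and genes with 2 or more luminal regions 185. With the 50000 highest-scoring peaks, basal-like promoter genes were 97 and basal-like-higher shared regions 387. Requiring no peak within 500 bp gave 249 luminal and 241 basal-like genes with 2 or more regions. These were 127 and 151 within 25 kb, 1090 and 981 within 100 kb, and 34 and 33 with 3 or more regions. Basal-like-higher shared regions were 528 with percentiles among shared regions. A gap of 10 points gave 1423 luminal-higher and 760 basal-like-higher regions, and a gap of 40 points 60 and 18.

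With 1 WT library left out, its population is defined by 1 library. Luminal regions then ranged from 3334 to 17624 and basal-like from 2858 to 14027, luminal promoter genes from 231 to 583 and basal-like from 102 to 954, genes with 2 or more luminal regions from 917 to 6917 and basal-like from 748 to 5687, and shared regions from 1624 to 4339 and from 855 to 2629. The limma calls ranged from 0 to 11, with 11 without BM2. The difference of the Lats1-CKO basal-like libraries between basal-like and luminal promoters ranged from -6.80 to 60.5 points, reversed without BM2 (-6.80) and without BM6 (-5.02); these alternatives, and those of the gene lists, were chosen after seeing the data. The cause was not tested.

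Of 27 named promoters, 24 kept their pattern with the 50000 highest-scoring peaks (Prss8, Axl and Pdgfrb did not) and 14 within 5 kb. With the 50000 highest-scoring peaks the AP-1 difference was -1.01 points, the CTCF difference -0.34 and the SOX difference -3.16. No paired analysis was possible because the labels give no replicate numbers and do not pair a luminal with a basal-like library; whether BM1 and BM2 share a culture or day is not stated.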
